A study of Oryza sativa with 36 samples.

Results

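The genes described are 8 regulators of phosphate signalling in rice, namely the SPX-domain genes OsSPX1 to OsSPX6, the transcription factor gene OsPHR2 and the ubiquitin-conjugating enzyme gene OsPHO2. They are defined by gene identifier, and 7 of the 8 were found among the 55801 genes of the count tables. OsSPX6 (LOC_Os07g42330) was not analysed here. Of the 7 genes found, 6 have a symbol in RefSeq near the same position, and the name OsPHO2 rests on the list of identifiers alone.

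The series compared Nipponbare wild-type rice with rice carrying FTO, an RNA demethylase that removes N6-methyladenosine (m6A) from RNA, and with rice carrying FTOmut, a variant that has lost that activity. Shoots and roots came from hydroponic seedlings in Kimura B solution, harvested at an age of 15 days. Each of the 6 combinations of genotype and tissue had 2 RNA-seq libraries and 2 m6A-seq replicates, each with an input and an immunoprecipitated library, which gives 36 samples in all. The promoter of the transgenes and the number of independent lines are not given in the labels, nor whether replicates came from separate plants, so the p-values below cover the spread among these libraries, which may be technical.

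In plants with enough phosphate, SPX proteins bind inositol pyrophosphates and then hold PHR transcription factors away from the promoters of phosphate starvation genes. When phosphate runs short the complex falls apart, PHR2 activates genes for phosphate uptake and recycling, and several SPX genes are themselves among its targets. PHO2 acts further along the pathway, where it marks phosphate transporters and the exporter PHO1 for degradation and is itself silenced by the microRNA miR399 during starvation. No promoter or peak sequence is shown, and positions below are printed as the peak lists give them, on a genome build not given in the sources used here.

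The RNA-seq libraries held 12970274 to 17875977 counts in genes, of which 2 loci on chromosome 9 took between 1.22% and 64.8%. That share was highest with FTO in both tissues. The FTO root libraries gave 23.2% and 22%, while the other root libraries ranged from 1.22% to 4.3%. The FTO shoot libraries gave 64.8% and 63.6%, while the other shoot libraries ranged from 14.3% to 34.4%. Every contrast with FTO therefore also compares libraries that differ in this share. In root, 6 markers of green tissue, of which 1 identifier is paired with its name in RefSeq, were summed as CPM, counts per 1e6 counts. The wild-type libraries gave 115 and 137 CPM, those of FTO 118 and 99.8, and those of FTOmut 957 and 618. The 4 root markers, of which 3 are so paired, summed to 1010 and 944 CPM in root of the wild type, 437 and 404 in FTO root and 1250 and 807 in FTOmut root, against 2.14 to 4.88 CPM over the shoot libraries. The wild-type shoot replicates stood apart from each other, with green markers at 6780 and 1720 CPM. Replicate 2 of FTOmut had 46275 genes with at least 10 counts in root and 36654 in shoot, more than any other library of the same tissue. In these bulk samples, fewer cells of a type and less RNA per cell cannot be told apart.

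Against wild type, OsPHO2 was the member called higher in FTO root, and OsSPX1, OsSPX2 and OsSPX4 were the members called lower in FTOmut root. Of all genes tested in root, 35.1% were called for FTO and 61.6% for FTOmut against wild type. OsSPX4 was also 1.32-fold lower in FTO root, short of a call (edgeR adjusted p = 0.0874). OsPHO2 was raised 2.57-fold over wild type in FTO root, while OsSPX1, OsSPX2 and OsSPX4 were 1.91-fold, 2.34-fold and 2.91-fold lower in FTOmut than in wild-type root. Without wild-type root replicate 2, the log2 change of OsPHO2 in FTO root was 0.82, against 1.36 with all libraries. Between the 2 transgenic genotypes, OsPHO2, OsSPX1, OsSPX2 and OsSPX4 were called higher in FTO root than in FTOmut root. In that contrast 20.3% of all genes were called. No member passed the edgeR test between genotypes in shoot, nor did any other gene tested there.

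**Figure D1:**
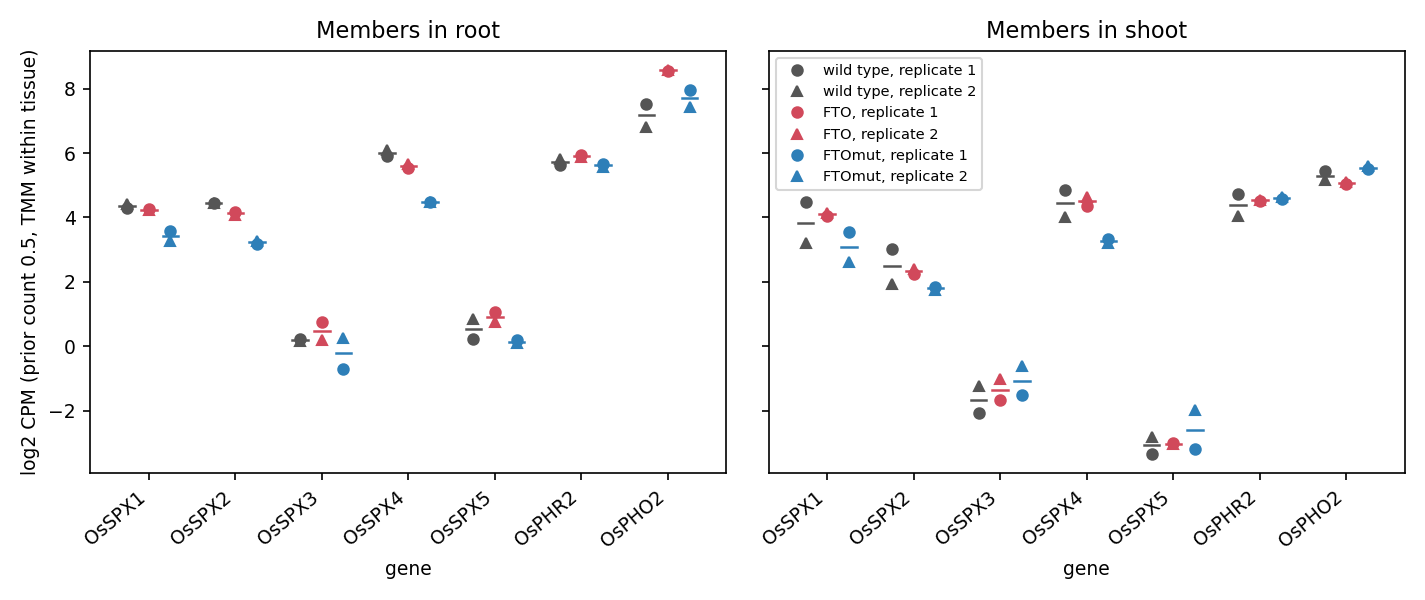
Level of each member in each RNA-seq library, as log2 CPM (prior count 0.5), in root (left) and shoot (right), with genotype by colour, replicate by symbol and the group mean as a bar. In root, both FTO libraries lie above all others for OsPHO2, and both FTOmut libraries lie below all others for OsSPX1, OsSPX2 and OsSPX4. The scale was set within each tissue, so heights are not comparable between the panels.

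OsSPX1 (LOC_Os06g40120) encodes a nuclear SPX protein that binds PHR2 when phosphate is ample. Its level in root was 19.6 and 21.5 CPM in wild-type plants, 19.1 and 18.8 with FTO and 11.9 and 9.71 with FTOmut. Both FTOmut libraries lay below the other 4, and FTO lay just under wild type. On the log2 scale, the change from wild type was -0.12 (SE 0.19) in FTO and -0.93 (SE 0.20) in FTOmut, with adjusted p of 0.639 and 0.00153 by edgeR's quasi-likelihood test with Benjamini-Hochberg adjustment over all 32467 genes tested in root.

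OsSPX2 (LOC_Os02g10780), which acts redundantly with OsSPX1 in holding back PHR2, showed a like order of libraries. It stood at 21.9 and 21.6 CPM in root of the wild type, 18 and 16.9 in FTO root and 9.07 and 9.52 in FTOmut root. The 3 genotypes did not overlap, in the order wild type, FTO, FTOmut. The difference of FTO from wild type did not pass the test (log2 change -0.32, SE 0.19, edgeR adjusted p = 0.188), whereas that of FTOmut did (log2 change -1.23, SE 0.19, edgeR adjusted p = 0.000135).

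OsSPX4 (LOC_Os03g61200) encodes the SPX protein that retains PHR2 in the cytosol and is degraded when phosphate runs short. Its level in root was 60.5 and 68.4 CPM in wild-type plants, 46.9 and 50.6 with FTO and 22.1 in each FTOmut library. The genotypes again ranked without overlap from wild type to FTO to FTOmut. The log2 change from wild type was -0.40 (SE 0.18, edgeR adjusted p = 0.0874) in FTO and -1.54 (SE 0.18, edgeR adjusted p = 1.04e-05) in FTOmut. With 1 of the 6 root libraries left out in turn, the value in FTO ran from -0.74 to -0.40. Scaling by spike-in RNA turned the sign of the value in FTO. Whether OsSPX4 fell in FTO root is therefore undecided, and the missing call does not show an unchanged level.

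OsSPX3 (LOC_Os10g25310) and OsSPX5 (LOC_Os03g29250), paralogs that are induced by phosphate starvation, were scarce. OsSPX3 had 10 to 25 counts per root library and OsSPX5 had 17 to 31. Their log2 changes from wild type in root were 0.31 (SE 0.71) and 0.33 (SE 0.61) in FTO, and -0.33 (SE 0.71) and -0.45 (SE 0.62) in FTOmut. Neither gene passed the test in root, and with standard errors of this size a change as large as that of OsSPX1 would not have been detectable.

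OsPHR2 (LOC_Os07g25710) encodes the central transcription factor of the phosphate starvation response. It was at 49.2 and 56.8 CPM in root of the wild type, 62.0 and 58.9 in FTO root and 50.4 and 47.6 in FTOmut root. Wild type and FTOmut overlapped, and FTO lay above both. No contrast in root passed the test, with log2 changes from wild type of 0.19 (SE 0.18) in FTO and -0.11 (SE 0.18) in FTOmut.

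OsPHO2 (LOC_Os05g48390), whose product limits phosphate uptake and its transport to the shoot, was at 183 and 113 CPM in root of the wild type, 378 and 383 in FTO root and 250 and 173 in FTOmut root. Both FTO libraries lay above the other 4, and the wild-type and FTOmut replicates overlapped with wide spread. The log2 change in FTO was 1.36 (SE 0.24, edgeR adjusted p = 0.000796) and that in FTOmut was 0.51 (SE 0.24, edgeR adjusted p = 0.0785). In FTOmut the value depended on single libraries: it was 0.79 (edgeR adjusted p = 0.00106) without FTOmut root replicate 2, -0.15 without FTOmut root replicate 1 and -0.01 without wild-type root replicate 2. The call in FTO rested on the lower wild-type library: without wild-type root replicate 2 the log2 change was 0.82 and the edgeR adjusted p was 0.229.

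**Figure D2:**
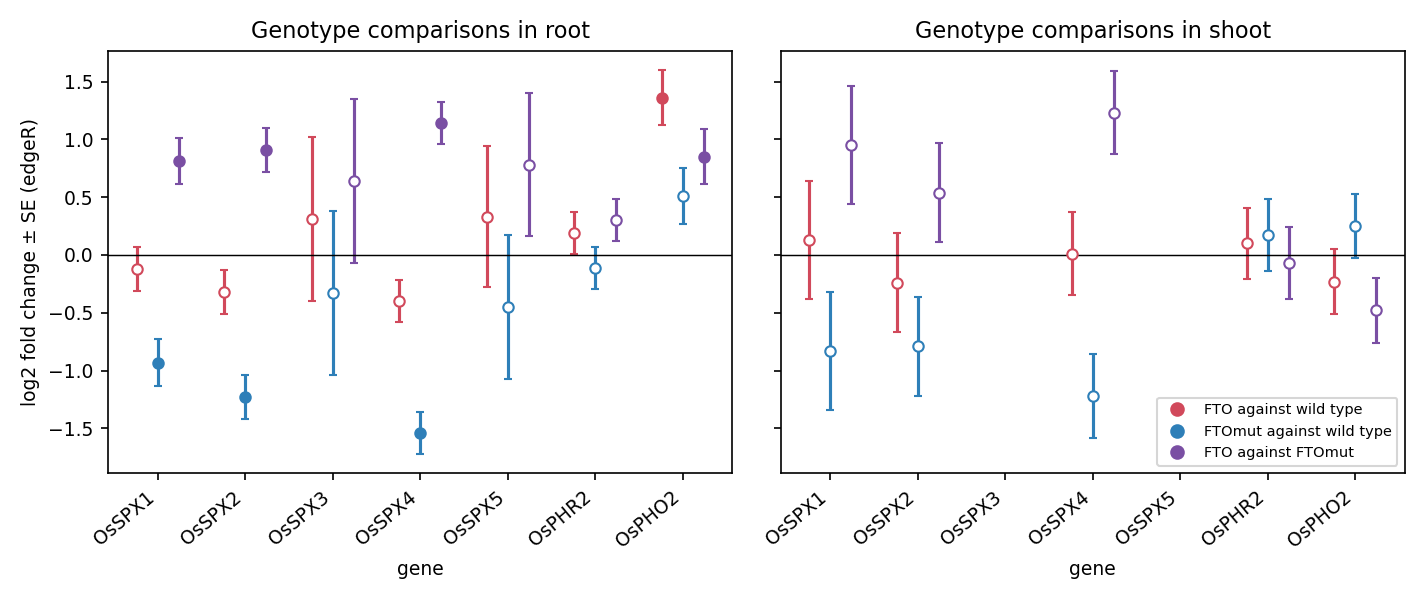
Log2 fold change of each member between genotypes in root (left) and shoot (right) from edgeR, with bars of 1 SE, where filled points passed an adjusted p of 0.05 and open points did not. In root the filled points are OsPHO2 for FTO against wild type at 1.36, OsSPX1, OsSPX2 and OsSPX4 for FTOmut against wild type from -0.93 to -1.54, and these 4 genes for FTO against FTOmut from 0.81 to 1.14. OsSPX3 and OsSPX5 have no point in shoot because they failed the filter on low counts.

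Over the members, 1 of 7 was called between FTO and wild-type root, where 35.1% of all genes tested were called and 16.3% were called higher. Between FTOmut and wild-type root 3 of 7 were called, all lower, against 61.6% of all genes called and 29.1% called lower. The median log2 change of the 7 genes was 0.19 in FTO, equal to the median of 0.19 over all genes, and -0.45 in FTOmut, against 0.06 over all genes. Both comparisons share the same wild-type libraries, and the share of members called was not above that of all genes in either. Scaling by spike-in RNA raised the all-gene median of FTO against wild-type root by 0.50, which put OsSPX1, OsSPX2 and OsSPX4 above 0 without a call and OsPHR2 at 0.70 with one.

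FTO and FTOmut root were also set against each other, a contrast between a transgene with and one without demethylase activity. OsSPX4 differed most, with a log2 difference of 1.14 (SE 0.18, edgeR adjusted p = 0.000439). OsSPX1 differed by 0.81 (SE 0.20, edgeR adjusted p = 0.00926), OsSPX2 by 0.91 (SE 0.19, edgeR adjusted p = 0.0037) and OsPHO2 by 0.85 (SE 0.24, edgeR adjusted p = 0.0236), each higher in FTO. In all, 4 of 7 members were called, where 20.3% of all genes were, and 14.8% of all genes were called as higher in FTO.

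The members' median log2 difference was 0.81, against -0.11 over all genes, and all 7 values were positive. OsSPX4 remained called whichever of the 6 root libraries was left out. OsSPX1 and OsPHO2 each remained called in 1 of those 6 cases and OsSPX2 in 2, with edgeR adjusted p from 0.0511 to 0.134 where the call was lost. With no filter on low counts, or in a fit of only the 4 libraries compared, OsSPX2 and OsSPX4 were the 2 members called. The FTOmut root libraries also carried more green-tissue marker signal, at 957 and 618 against 118 and 99.8 CPM in FTO root, and more root marker signal. The part of either in these differences was not tested.

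**Figure D3:**
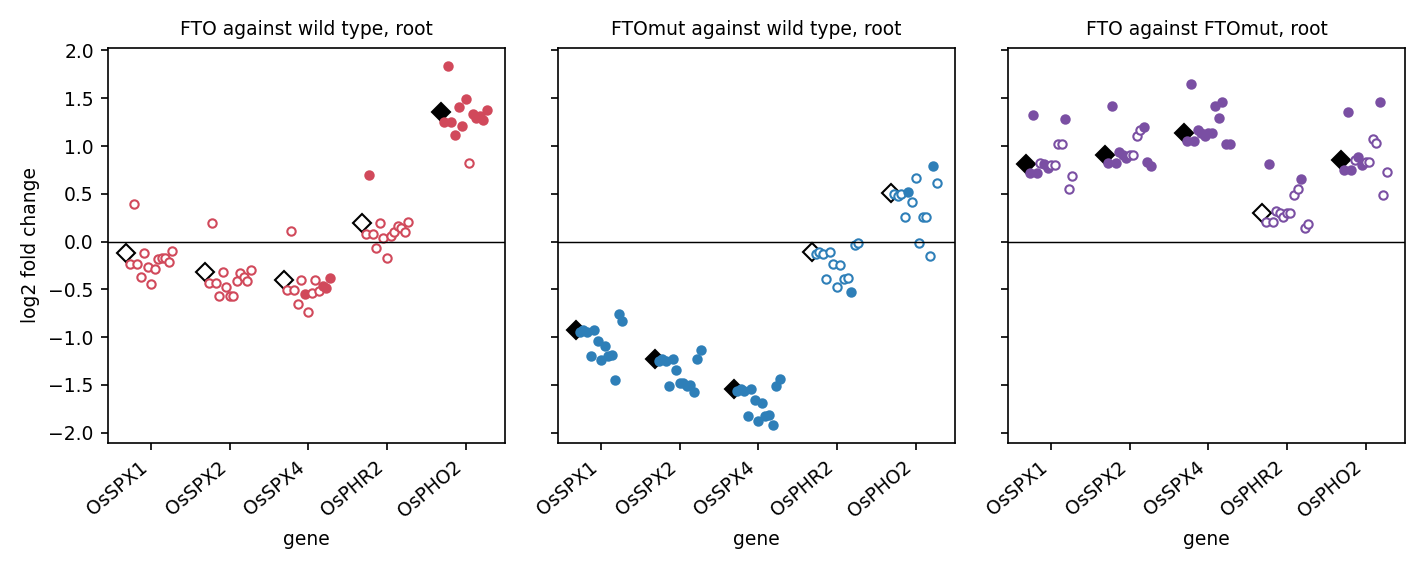
Log2 fold change of 5 members in root under the main setting (black-edged diamond) and under each alternative normalization, filter, test, block and left-out library (small points), for the 3 pairs of genotypes, with filled symbols where adjusted p was under 0.05. OsSPX1, OsSPX2 and OsSPX4 stay filled and below 0 in FTOmut against wild type, between -0.76 and -1.92 with 1 library left out, while the OsPHO2 points for FTOmut against wild type lie on both sides of 0.

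In shoot, 5 of the members passed the filter on low counts. OsSPX4 was at 29.1 and 16.1 CPM in wild-type plants, 20.5 and 25 with FTO and 10.1 and 9.26 with FTOmut. OsSPX1 was at 22.3 and 9.19 CPM in wild-type plants, 16.7 and 17.6 with FTO and 11.6 and 6.07 with FTOmut. OsSPX2 was at 8.16 and 3.78 CPM in wild-type plants, 4.74 and 5.30 with FTO and 3.56 and 3.32 with FTOmut. For OsSPX2 and OsSPX4 both FTOmut libraries lay below the other 4, while for OsSPX1 FTOmut overlapped wild type. The share of all genes whose libraries separate in this way was not computed, in shoot or in root.

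None of the 5 was called in any pair of genotypes in shoot, and edgeR called 0 of 24463 genes, or 0.0%, in each pair. At an unadjusted p under 0.05, edgeR gave 974 genes (3.98%) for FTO against wild type and 2294 (9.38%) for FTOmut against wild type. For FTO against FTOmut it gave 4205 (17.2%). In the same order, DESeq2 called 38, 509 and 1357 genes at an adjusted p under 0.05. The log2 difference of FTOmut from wild type was -0.83 (SE 0.51) for OsSPX1, -0.79 (SE 0.43) for OsSPX2 and -1.22 (SE 0.36) for OsSPX4, the last with an edgeR adjusted p of 0.375. Without wild-type shoot replicate 2, the library with the low green marker level, these 3 values were -1.54, -1.48 and -1.82. That fit left a single wild-type shoot library. Over the 6 fits with 1 library left out, OsSPX1 ran from -1.76 to -0.30, OsSPX2 from -1.48 to -0.41 and OsSPX4 from -1.82 to -1.01.

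OsPHO2 and OsPHR2 were also measured in shoot. OsPHO2 was at 43.0 and 35.4 CPM in shoot of the wild type, 32.6 and 34.0 with FTO and 45.2 and 48.0 with FTOmut. OsPHR2 was between 22.8 and 24.7 CPM in all FTO and FTOmut shoot libraries and at 26.5 and 16.7 in wild type. OsPHO2 in FTO shoot had a log2 change from wild type of -0.23 (SE 0.28), which was not called and turned to 0.83 with ERCC spike-in scaling. OsSPX3 had 3 to 14 counts per shoot library and OsSPX5 had 1 to 5, and neither was tested.

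The genotype effects in root and shoot were compared directly over all 12 libraries. For OsPHO2 the effect of FTO was larger in root by 1.19 on the log2 scale (SE 0.45), which did not pass the edgeR test (adjusted p = 0.168). DESeq2 gave 1.5 with an adjusted p of 0.0108. By edgeR 0 of 7 members differed between organs in the effect of FTO, where 3.31% of all 38524 genes did, and 0 of 7 in the effect of FTOmut, where 0.909% did. At an unadjusted p under 0.05, edgeR gave 8406 and 5303 genes in these contrasts, or 21.8% and 13.8% of all genes. OsPHO2, for FTO, was the only member among them, so the share of members was not above that of all genes.

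Between organs of the same genotype, OsPHO2 in FTO was higher in root by 1.90 on the log2 scale (SE 0.33, edgeR adjusted p = 0.000959) and OsSPX1 in FTO was lower in root by the log2 value -1.47 (SE 0.44, edgeR adjusted p = 0.028). These were 2 of 7 members, against 22.2% of all genes. With 1 of the 12 libraries left out in turn, OsPHO2 remained called in 10 of 12 cases and OsSPX1 in 6. On 1 scale over both tissues, OsPHO2 in FTO was at log2 CPM 7.75 and 7.79 in root and 5.85 and 5.88 in shoot. OsSPX1 in FTO was at 3.44 in both root libraries and 4.88 and 4.93 in shoot. No member was called between root and shoot in wild type (19.8% of all genes called) or in FTOmut (15.1%).

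The scale between organs limited these values. The median log2 difference between root and shoot over all genes was -0.26 in wild type, 0.65 in FTO and -0.07 in FTOmut. Scaling by spike-in RNA lowered these medians by the shifts -1.54, -1.63 and -1.88, and turned the direction of 5 of the 7 members in wild type.

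Levels per kb of gene length order the members within a tissue. In wild-type root the mean CPM per kb was 40.3 ± 3.46 for OsSPX4, 33 ± 11 for OsPHO2, 23.4 ± 2.33 for OsPHR2, 16.8 ± 0.141 for OsSPX2 and 14.6 ± 0.919 for OsSPX1 (SD, n = 2). OsSPX4 and OsPHO2 overlapped between replicates, and OsSPX5 at 1.44 ± 0.445 and OsSPX3 at 0.7 ± 0.0212 CPM per kb lay far below. In FTO root OsPHO2 came first at 84.7 ± 0.849, ahead of OsSPX4 at 30.6 ± 1.63 and OsPHR2 at 26.6 ± 0.919 CPM per kb (SD, n = 2). In FTOmut root OsPHO2 was at 47.1 ± 12.2, OsPHR2 at 21.6 ± 0.849 and OsSPX4 at 13.8 ± 0.0707 CPM per kb (SD, n = 2), so that OsSPX4 lay below OsPHR2 there and above it in wild type.

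Likeness across libraries was measured as the root mean square difference in log2 CPM over the 12 libraries, each gene centred on its mean in each tissue, among the members and 23 other phosphate pathway genes. OsSPX2 and OsSPX4 were nearest to each other at 0.24, and OsSPX1 was nearest to OsSPX2 at 0.26. OsSPX3 was nearest to OsSPX5 at 0.32, where both genes rest on few counts. OsPHR2 and OsSPX5 were nearest to OsSIZ1, a SUMO E3 ligase gene, at 0.18 and 0.30, and the distance of OsPHR2 equalled its own variation of 0.18. OsPHO2 was nearest at 0.29 to a listed pathway gene whose name RefSeq does not pair with its identifier, and next to OsSIZ1 at 0.36.

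Of the 23 other pathway genes, in FTO against wild-type root 8 were higher and 3 lower, where 35.1% of all genes were called and 16.3% were higher. They covered other regulators, other SPX-domain proteins, starvation response genes and phosphate transporters, and a gene is named below only where RefSeq pairs its identifier with the name. That held for 3 of 7 regulators, 3 of 6 SPX-domain genes, 0 of 5 starvation response genes and 5 of 5 transporters, so the other memberships rest on the lists alone. Of the 6 other SPX-domain genes, 4 were higher in FTO root, with a median log2 change of 1.52 against 0.19 over all genes. Among them OsPHO1;3, a PHO1 exporter family gene, changed by 2.17 (SE 0.69, edgeR adjusted p = 0.0257). Its counts were few, at 5 and 13 in the wild-type root libraries and 30 and 35 in those of FTO. Of the 5 phosphate transporter genes, 1 was higher and 1 lower. OsPT2 was lower, at a log2 change of -1.58 (SE 0.18, edgeR adjusted p = 1.31e-05), and OsPT1, named after its values were seen, was higher, at 1.10 (edgeR adjusted p = 0.00104).

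In FTOmut against wild-type root, 6 of the 23 were higher and 12 lower, where 61.6% of all genes were called and 29.1% were lower, with a median log2 change of -0.73 against 0.06 over all genes. The same 6 SPX-domain genes had 4 higher and 1 lower, and OsPHO1;3 changed by 2.04 (SE 0.68, edgeR adjusted p = 0.0198). The counts of OsPHO1;3 were few here too, at 18 and 74 in the FTOmut root libraries. Of 7 other regulators 5 were lower, among them OsPHR3, a relative of OsPHR2, at -2.24 (SE 0.18, edgeR adjusted p = 2.47e-07). Of the 5 genes listed for the starvation response, none of which RefSeq pairs with its name, 4 were lower and none was higher, with a median of -1.57.

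In FTO against FTOmut root, 12 of the 23 were higher and 0 lower, where 20.3% of all genes were called and 14.8% were higher, with a median log2 difference of 0.63 against -0.11 over all genes. OsPHR3 differed by 2.22 (SE 0.18, edgeR adjusted p = 2.01e-06) and the transporter gene OsPT4 by 1.67 (SE 0.20, edgeR adjusted p = 3.88e-05). Of the 11 genes not called, 3 had values below 0. In shoot, none of the 22 pathway genes that passed the filter was called in any pair.

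**Figure D4:**
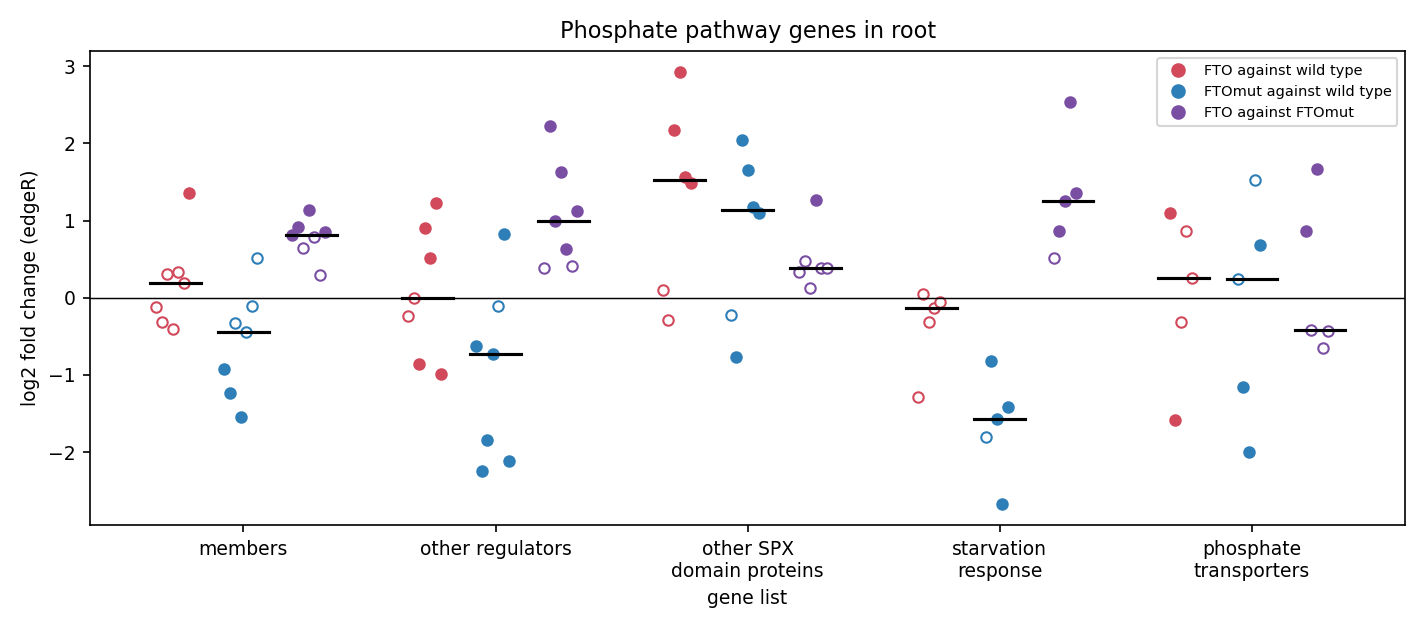
Log2 fold change in root of the members and of 4 lists of other phosphate pathway genes, each point 1 gene, with filled points called at adjusted p under 0.05 and a bar at each list's median. The starvation response list has its median at -1.57 for FTOmut against wild type and at 1.25 for FTO against FTOmut, and the list of other SPX-domain proteins has its medians for both transgenic genotypes against wild type above 1.

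m6A peaks were read from 12 lists, 1 for each genotype, tissue and replicate, with 12963 to 15999 peaks each. The fold of immunoprecipitate over input is the authors' own value for each peak and is given as a description with no test, and a high fold can rest on few input reads. OsSPX4, OsPHR2, OsPHO2 and a first site of OsSPX1 held a peak in all 12 lists. OsSPX2 held one in 9 lists, OsSPX3 in 1, and OsSPX5 in none. OsSPX3 and OsSPX5 were also the least abundant members, and a peak in a gene of so few counts may be undetectable.

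The site of OsPHR2, on the plus strand of chromosome 7 from 14758816 to 14759375, had the highest median fold of the sites, 106.5, with a range of 65.7 to 147 over the 12 lists. The first OsSPX1 site had the higher fold in 4 of the 12 lists. In root the fold of the OsPHR2 site was 65.7 and 95.4 for wild type, 122 and 147 for FTO, and 106 and 144 for FTOmut. Both transgenic genotypes lay above wild type in root. In shoot the fold of the OsPHR2 site was 107 and 76.0 for wild type, 108 and 77.0 for FTO, and 89.8 and 120 for FTOmut. There the genotypes overlapped.

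The OsSPX4 site, on the plus strand of chromosome 3 from 34758518 to 34758997, had folds between 28.6 and 141. It was listed as 2 neighbouring peaks in wild-type root replicate 2 and in FTOmut root replicate 1, and as 1 peak elsewhere. In root the folds were 60.0, 28.6 and 74.0 for the wild-type peaks, 67.8 and 141 for those of FTO, and 29.8, 29.0 and 40.3 for those of FTOmut. In shoot they were 32.0 and 60.0 for wild type, 51.4 and 37.0 for FTO, and 67.0 and 32.0 for FTOmut. In root wild type overlapped both FTO and FTOmut, while FTO lay above FTOmut, and in shoot all 3 genotypes overlapped. The site of OsPHO2, on the minus strand of chromosome 5 from 27740065 to 27740534, had lower folds, of 10.5 and 10 in wild-type root, 14.5 and 10.4 in FTO root, and 13.1 and 11.8 in FTOmut root. The root folds of OsPHO2 in FTO overlapped those of both other genotypes, and both FTOmut folds lay above both wild-type folds.

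OsSPX1 held 2 sites on the minus strand of chromosome 6. The first, from 23875438 to 23875757, was in all 12 lists with folds of 35.8 to 132. The second, from 23879306 to 23879686, lies 3548 bp away, on the 5′ side of the first along the transcribed strand, and each of its peaks spans 2 blocks. It was listed in wild-type root with folds of 6.86 and 5.75 and in FTO root with 8.0 and 13. It was in neither FTOmut root list and in no shoot list. The level of OsSPX1 RNA was also lower in FTOmut root, at 11.9 and 9.71 CPM, and the part of that level in the missing peaks was not tested.

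The OsSPX2 site, on the plus strand of chromosome 2 from 5708908 to 5709127, was missing from wild-type root replicate 1, FTO root replicate 2 and FTOmut shoot replicate 1. Its folds ran from 6.25 in wild-type root replicate 2 to 37.0 in FTOmut shoot replicate 2. In root it was present in both lists only of FTOmut, the genotype with the lowest OsSPX2 RNA. The single OsSPX3 peak, on chromosome 10 from 13090938 to 13091078, was in FTOmut shoot replicate 2 with a fold of 10.

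Counting a peak as replicated where both lists of a group overlapped, 4 of the 7 members that passed the root filter had one in wild-type root, 4 of 7 in FTO root and 5 of 7 in FTOmut root, where 33.1%, 33.7% and 34.1% of all genes passing the root filter did. In shoot, of the 5 members that passed the filter, 5 had one in wild type, 5 in FTO and 4 in FTOmut, where 42.1%, 45.2% and 43.9% of genes passing did. No member with a replicated peak in wild type lost all its peaks in FTO or FTOmut. Over all genes, 1.87% of those with a replicated peak in wild-type root had none in FTO, and 3.1% had none in FTOmut. In shoot these shares were 1.01% and 1.46%.

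**Figure D5:**
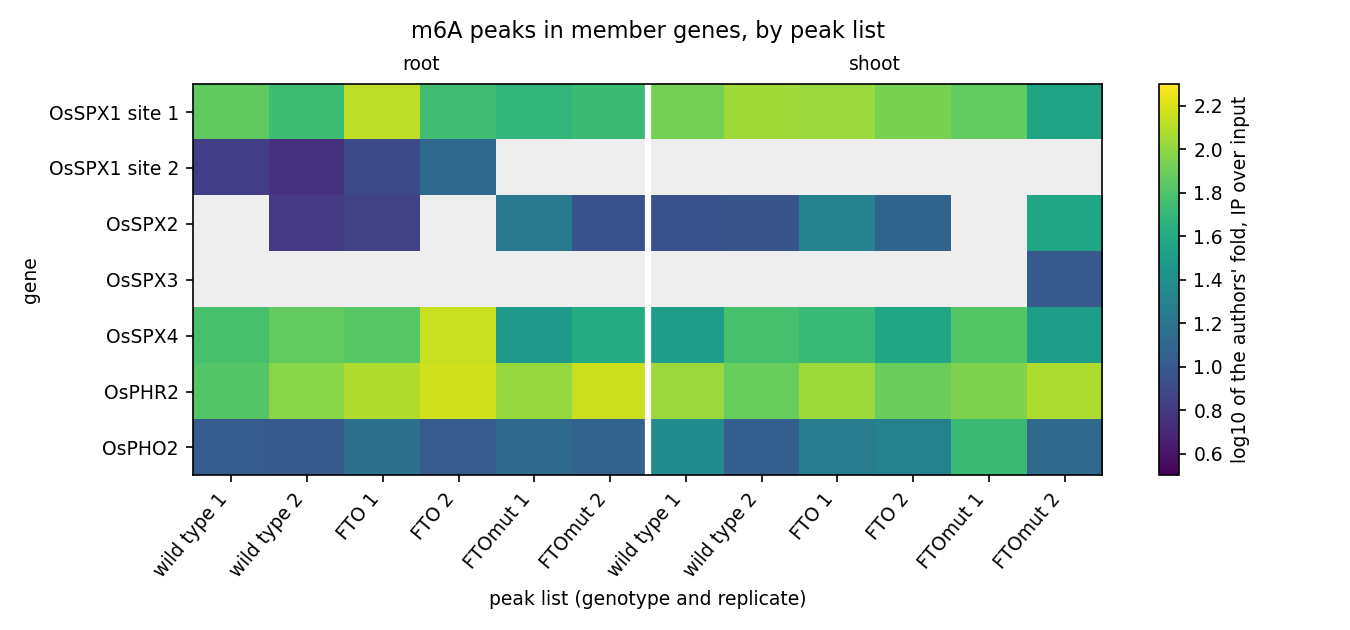
Fold of immunoprecipitate over input, on a log10 colour scale, for each m6A site of the members (rows) in each of the 12 peak lists (columns, root left and shoot right), with grey where no peak was listed. The second OsSPX1 site is coloured only in the wild-type and FTO root lists, and OsPHR2 is at 65.7 or above in every list.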

How the data were processed

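Per the submitters' processing notes, reads were trimmed with cutadapt 1.15, aligned with HISAT2 2.1.0 and assigned to genes by featureCounts (Subread 1.6.4). Gene tables as deposited hold expected counts with no normalization, and a gene length (bp, an other unit) that served only for levels per kb. Whether counting used strand is not given in the sources used here. The labels call the RNA-seq molecule polyA RNA and also describe ribosomal depletion, with an ERCC spike-in before that step. The deposited m6A lists, from MeTPeak per the labels, give for each peak the authors' ratio (fold) of immunoprecipitate over input, a p-value and a log10 FDR.

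Expected counts were rounded. All 6 libraries of a tissue were fitted together with edgeR 4.0.16 (R 4.3.3; filterByExpr, TMM, robust quasi-likelihood test, Benjamini-Hochberg adjustment over all genes tested, call under 0.05), and all 12 for comparisons between organs. Levels are CPM with these factors, with a prior count of 0.5 on the log2 scale. Levels on 1 scale over both tissues were added after the first results were seen. The alternatives were size factors by RLE, ERCC scaling, DESeq2 1.42.0, no filter, a replicate block, removal of the 2 chromosome 9 loci, a fit of only the 4 libraries compared, and each library left out.

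The test was tried on simulated counts with known changes, first with gene-wise and later also with trended dispersions. Fold changes were recovered in both. Unchanged genes were called well above the nominal rate in root with gene-wise dispersions and below it with trended ones, and few changed genes were called in shoot or between organs with either, so a missing call there says little. More of the calls in root than the nominal rate may therefore be false.

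All members are named in each comparison. Of the other pathway genes, the rule named the 3 called with the largest change in each direction, and those whose identifier RefSeq does not pair with the name were only counted. The members and lists were chosen with earlier results of these data known. A planned search for a promoter motif was not run. No 2 libraries of a group agreed within sampling noise, so none was treated as a duplicate.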

Additional observations from a re-analysis of the deposited data

How the results depend on the processing

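The falls of OsSPX1, OsSPX2 and OsSPX4 in FTOmut root kept their direction and their call under every alternative run. The call of OsPHO2 in FTO root held under all of them but 1, the fit without wild-type root replicate 2, where it was 0.82 (edgeR adjusted p = 0.229). No number of members with a replicated m6A peak moved by more than 1.5 times under the other overlap, fold or replicate rules. The rule of a fold of at least 2 could move none, since the lowest fold in any list was 2.33. The rule of a peak in at least 1 replicate could not move a number that far either, since too few members held any peak. The cause of the changes below was not tested. With 2 libraries per group, and few counts for OsSPX3 and OsSPX5, moderate differences were not detectable, and scaling decides directions between organs. The promoter motif alternative was not run. The number of members called in FTO against wild type in root went from 1 to 2 with ERCC scaling, 2 with the chromosome 9 loci removed and 2 with only 4 libraries fitted and FTO against FTOmut in root went from 4 to 2 with no filter and 2 with only 4 libraries fitted. The number of members called in FTO against FTOmut in shoot went from 0 to 1 with ERCC scaling and 1 with only 4 libraries fitted and root against shoot in FTOmut went from 0 to 1 with RLE size factors, 4 with ERCC scaling and 1 with DESeq2. The number of members called in root against shoot in wild type went from 0 to 3 with ERCC scaling and root against shoot in FTO went from 2 to 4 with ERCC scaling, 1 with no filter and 1 with the chromosome 9 loci removed. The number of members called in the FTO effect in root minus shoot went from 0 to 1 with DESeq2. With ERCC scaling, the sign turned for OsSPX1 at 0.39, OsSPX2 at 0.19 and OsSPX4 at 0.11 in FTO against wild type in root, OsSPX2 at 0.88 and OsPHO2 at 0.83 in FTO against wild type in shoot and OsPHR2 at 0.65 and OsPHO2 at 0.24 in FTO against FTOmut in shoot. Under the same setting, the sign turned for OsSPX2 at -0.78, OsSPX3 at -0.91, OsSPX4 at -1.16, OsPHR2 at -1.40 and OsPHO2 at -0.77 in root against shoot in wild type, OsSPX2 at -1.47 and OsSPX3 at -1.40 in root against shoot in FTO and OsSPX2 at -1.61, OsSPX5 at -0.27 and OsPHO2 at -0.88 in root against shoot in FTOmut. Under the same setting, the sign turned for OsPHO2 at -0.11 in the FTOmut effect in root minus shoot. With no filter, the sign turned for OsPHR2 at -0.07 in FTO against wild type in root and OsPHR2 at 0.08 in FTO against FTOmut in shoot. With RLE size factors, the sign turned for OsPHR2 at -0.02 in root against shoot in wild type, OsSPX4 at 0.16 in root against shoot in FTOmut and OsSPX5 at 0.20 and OsPHR2 at 0.00 in the FTO effect in root minus shoot. Under the same setting, the sign turned for OsSPX1 at 0.19 and OsPHR2 at 0.01 in the FTOmut effect in root minus shoot. With DESeq2, the sign turned for OsPHR2 at -0.02 in root against shoot in wild type, OsSPX4 at 0.16 in root against shoot in FTOmut and OsSPX5 at 0.20 in the FTO effect in root minus shoot. Under the same setting, the sign turned for OsSPX1 at 0.19 and OsPHR2 at 0.01 in the FTOmut effect in root minus shoot. With 1 library left out in turn, the number of members called ranged from 0 to 2 for FTO against wild type in root, 1 to 5 for FTO against FTOmut in root, 0 to 3 for FTOmut against wild type in shoot and 0 to 2 for FTO against FTOmut in shoot. It ranged from 0 to 1 for root against shoot in wild type, 0 to 3 for root against shoot in FTO and 0 to 1 for root against shoot in FTOmut. The single genes whose sign turned ranged over OsSPX3 from -0.04 to 0.51, OsSPX5 from -0.21 to 0.45 and OsPHR2 from -0.17 to 0.16 in FTO against wild type in root and OsPHO2 from -0.15 to 0.79 in FTOmut against wild type in root. They ranged over OsSPX1 from -0.57 to 0.67, OsSPX2 from -0.89 to 0.18, OsSPX4 from -0.54 to 0.28 and OsPHR2 from -0.39 to 0.25 in FTO against wild type in shoot and OsPHR2 from -0.38 to 0.25 and OsPHO2 from -0.13 to 0.32 in FTOmut against wild type in shoot. They ranged over OsPHR2 from -0.04 to 0.08 in FTO against FTOmut in shoot and OsSPX1 from -1.32 to 0.19, OsSPX4 from -0.06 to 1.03 and OsPHR2 from -0.20 to 0.70 in root against shoot in wild type. They ranged over OsSPX1 from -1.75 to 0.17, OsSPX2 from -0.29 to 0.80, OsSPX4 from -0.53 to 0.58 and OsPHR2 from -0.61 to 0.32 in root against shoot in FTOmut and OsSPX2 from -1.23 to 0.11, OsSPX3 from -0.80 to 0.02, OsSPX5 from -0.41 to 0.25 and OsPHR2 from -0.78 to 0.12 in the FTO effect in root minus shoot. They ranged over OsSPX1 from -1.27 to 0.92, OsSPX2 from -1.39 to 0.05, OsSPX4 from -1.12 to 0.19, OsPHR2 from -0.92 to 0.14 and OsPHO2 from -0.22 to 0.70 in the FTOmut effect in root minus shoot.

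Replicate numbers did not pair the samples: with 2 numbers, the correlation of same-numbered deviations between genotypes ranged from -0.278 to 0.162. A replicate block changed 1 call of 71, OsPHO2 in FTOmut against wild-type root, which was 0.52 with an edgeR adjusted p of 0.0315. With the block the sign also turned for OsPHR2 at -0.05 in root against shoot in wild type, OsSPX2 at -0.07 in root against shoot in FTO and OsSPX2 at -0.08 in root against shoot in FTOmut. In root, FTO and FTOmut gave the correlation of -0.278, and no crossed pairing was run.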
